A study of Mus musculus with 4 samples.

Results

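Dusp1, Dusp2, Dusp5, Zfp36, Zfp36l1, Zfp36l2, Btg1 and Btg2 are 8 of the 18825 genes in the deposited count table of aortic myeloid cells. They were taken by name: 3 phosphatases that switch off MAP kinases, the 3 ZFP36 proteins that bind AU-rich mRNA, and 2 BTG proteins that join the deadenylases which shorten poly(A) tails. All 8 genes were detected and passed the filter on low counts. The cells carried CD45, the surface protein of leukocytes, and were taken alive from aortas of Apoe-/- mice after 13 weeks on western diet. Apoe-/- mice lack apolipoprotein E and develop atherosclerosis, and every sample shared this genotype and diet, so the comparisons below are between clusters of cells within the same aortas. The series text names 6 mice and the titles name 2 biological replicates with 2 libraries each. The labels do not state how the 6 mice were split over the replicates or whether both libraries of a replicate hold the same animals.

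The 4 libraries held 236 to 1231 cells each and 1698585 to 5954716 unique molecular identifiers (UMIs, 1 for each transcript caught), 3002 cells in all, and shared 0 cell barcodes. The authors' 14 deposited clusters were used by number and checked against marker genes. Clusters 0, 3, 8, 1, 2 and 13 were taken as macrophages. In cluster 0, 12 of 12 resident macrophage markers such as Lyve1 and Vsig4 stood at 2-fold or more of the mean of the other clusters, and in cluster 3 it was 9 of 12. Cluster 8 held 11 of 12 foamy macrophage markers such as Gpnmb and Spp1, cluster 2 held 9 of 12 inflammatory and also 9 of 12 resident markers, and cluster 13 held 7 of 10 cavity macrophage markers. Cluster 1, with Cd72 and Cx3cr1 among its leading genes, held 0 of 12 resident, 1 of 12 inflammatory and 2 of 12 foamy markers. Its kind of macrophage is left unnamed. The macrophage gene Adgre1 was at 542 CPM in cluster 1, 584 in cluster 0 and 91.9 in cluster 4, but at 150 in cluster 8. The dendritic clusters were 4 (cDC2-like, 6 of 8 markers), 11 (cDC1-like, 8 of 8) and 12 (mature dendritic-like, 8 of 9). Cluster 5 was monocyte-like (7 of 12) and cluster 7 neutrophil-like (8 of 8), although cluster 7 also held 8 of 12 inflammatory macrophage markers and 6 of 12 monocyte markers. Cluster 6 was proliferating (9 of 9) and also held 6 of 7 measured T or NK cell markers, with Gzma its leading gene, cluster 9 carried fibroblast markers (6 of 6), and cluster 10 is left unnamed. Haemoglobin and other erythroid markers summed to 27912 CPM in replicate 1 and 42.4 CPM in replicate 2 of cluster 3, and to 16274 and 11.2 CPM in cluster 7. In cluster 0 they summed to 3586 and 17.3 CPM and in cluster 1, with the high replicate the other one, to 33.3 and 4746 CPM. Their part in the results on clusters 0, 1, 3 and 7 was not tested.

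MAP kinases (ERK, JNK and p38) carry signals from growth factors, cytokines and bacterial products to the nucleus. DUSP1, DUSP2 and DUSP5 are nuclear phosphatases that remove the activating phosphates, DUSP1 mainly from p38 and JNK, and DUSP5 from ERK. ZFP36, also called tristetraprolin or TTP, binds AU-rich elements of mRNAs such as that of tumour necrosis factor and brings in the CCR4-NOT deadenylase, and its paralogs ZFP36L1 and ZFP36L2 bind the same kind of element. BTG1 and BTG2 bind the deadenylase subunits of that complex and slow cell division. In macrophages Dusp1, Zfp36 and Btg2 belong to the immediate-early genes, which are transcribed within minutes of a stimulus, enzymatic tissue digestion included, and have short-lived mRNAs.

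The promoters are shown because the 4 genes printed hold the elements through which immediate-early genes are known to be switched on. RefSeq windows on GRCm38.p6 from 250 bases before to 50 bases after the annotated start were matched for 7 of the 8 genes, all but Zfp36l2. Capitals mark matches on either strand to the cAMP response element TGACGTCA, to the EGR element GCGNGGGCG, or to the CArG box bound by serum response factor. No marked match overlaps another.
Dusp1, chr17:26508423-26508722, minus strand: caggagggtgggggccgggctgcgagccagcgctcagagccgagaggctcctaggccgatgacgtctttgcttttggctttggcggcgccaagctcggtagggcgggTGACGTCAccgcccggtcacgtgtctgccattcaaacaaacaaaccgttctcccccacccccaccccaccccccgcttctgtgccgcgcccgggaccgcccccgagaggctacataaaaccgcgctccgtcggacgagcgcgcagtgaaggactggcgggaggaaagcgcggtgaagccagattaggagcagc
Btg2, chr1:134079106-134079405, minus strand: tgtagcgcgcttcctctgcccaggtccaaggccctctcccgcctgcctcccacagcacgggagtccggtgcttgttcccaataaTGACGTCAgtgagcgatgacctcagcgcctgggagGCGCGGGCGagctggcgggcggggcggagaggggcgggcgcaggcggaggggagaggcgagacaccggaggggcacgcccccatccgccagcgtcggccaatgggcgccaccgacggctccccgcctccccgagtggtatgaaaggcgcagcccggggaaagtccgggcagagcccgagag
Zfp36, chr7:28379179-28379478, minus strand: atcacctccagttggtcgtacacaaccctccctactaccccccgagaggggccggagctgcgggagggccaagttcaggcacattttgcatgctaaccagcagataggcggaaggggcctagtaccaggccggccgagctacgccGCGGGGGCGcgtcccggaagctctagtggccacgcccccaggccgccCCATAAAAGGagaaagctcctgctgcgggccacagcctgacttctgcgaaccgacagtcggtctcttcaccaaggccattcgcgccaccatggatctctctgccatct
Dusp5, chr19:53528895-53529194, plus strand: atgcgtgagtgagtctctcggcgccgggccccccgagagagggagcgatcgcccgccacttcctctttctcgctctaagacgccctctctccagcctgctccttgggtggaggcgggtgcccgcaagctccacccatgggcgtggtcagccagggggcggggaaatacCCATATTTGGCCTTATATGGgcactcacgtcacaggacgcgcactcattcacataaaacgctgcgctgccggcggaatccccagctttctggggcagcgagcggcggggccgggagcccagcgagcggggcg

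Dusp1 and Btg2 each held 1 cAMP response element, beginning 143 and 166 bases before the start, a sequence found in 1.79% of 32851 RefSeq promoters of the same length. Dusp5 held 2 adjacent CArG boxes, beginning 82 and 72 bases before the start, and Zfp36 held 1 that began 58 bases before it. A CArG box was found in 1.63% of all promoters. The EGR element, in 5.55% of promoters, was found in Zfp36, Btg2 and Dusp2. AP-1 letters (TGANTCA, 7.81% of promoters) were found in Zfp36l1, and TATA letters (TATAAA, 13.6%) in Zfp36l1 and Btg1. The kappaB letters (8.46%) were in none of the 7 windows. A match describes the letters and is not evidence of binding. On the mm10 build, as GENCODE M21 annotates it, the genes are protein coding and lie apart from each other, with Dusp1 (chr17:26505590-26562128) and Zfp36l2 (chr17:84183931-84187947) sharing a chromosome.

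The 8 genes gave 162745 UMIs, 1.02% of all UMIs. Zfp36 gave 32.5% of them and Dusp1 28.1%, followed by Btg2 with 14.5%, Btg1 with 9.66%, Zfp36l1 with 7.16%, Zfp36l2 with 5.09%, Dusp2 with 2.09% and Dusp5 with 0.931%. Zfp36 was detected in 83.6% of cells and Dusp5 in 23.7%. Levels below are counts per 1000000 UMIs of a cluster (CPM), as mean ± SD over the 2 biological replicates. A 3' UMI counts a transcript once whatever its length, so levels of different genes share this scale. Fewer transcribing cells and fewer transcripts per cell cannot be told apart in these sums.

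**Figure D1:**
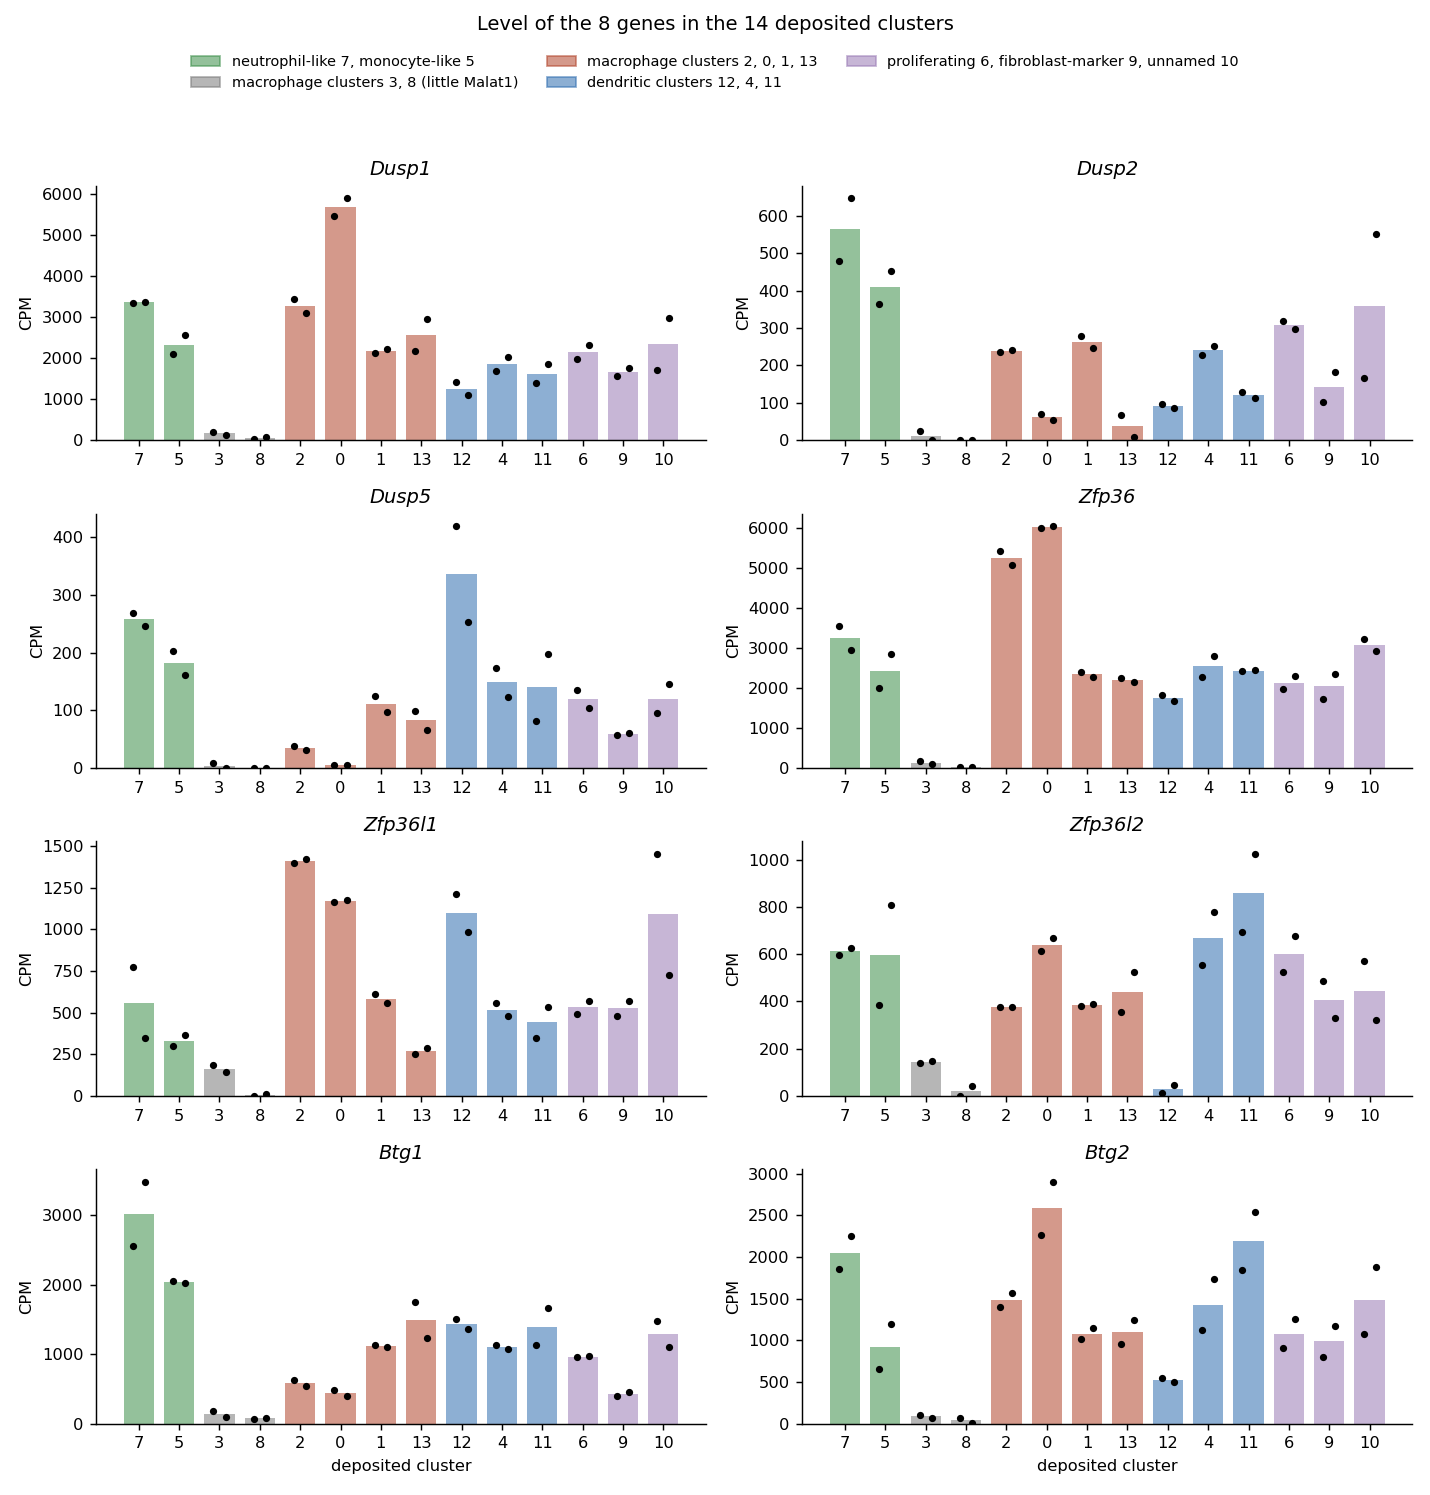
CPM of each gene in the 14 deposited clusters, with the 2 biological replicates as points, their mean as a bar and a panel and linear axis for each gene. Dusp1 and Zfp36 stand highest in cluster 0 at 5671 and 6019 CPM, Dusp2 and Btg1 in cluster 7, Dusp5 in cluster 12, Zfp36l1 in cluster 2, and clusters 3 and 8 are low for all 8 genes.

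Among the phosphatases, Dusp1 was abundant in every cluster but 3 and 8, and Dusp5 was near absent from cluster 0 as well. Dusp1 reached 5671 ± 322 CPM in resident macrophage-like cluster 0, apart from 3355 ± 17.7 in neutrophil-like cluster 7 and 3265 ± 250 in cluster 2, and was lowest, outside clusters 3, 8 and 10, in mature dendritic-like cluster 12 at 1246 ± 222 CPM. The highest and lowest of those 11 clusters differed 4.55-fold. Dusp2, also called phosphatase of activated cells, was highest in cluster 7 at 565 ± 119 CPM and in monocyte-like cluster 5 at 409 ± 61.8, and was at 61.4 ± 10.4 in cluster 0 and 37.3 ± 41.1 in cavity-like cluster 13. Among the same 11 clusters the extremes of Dusp5 were those of Dusp1 exchanged, although cluster 7 was second for both. Dusp5 reached 336 ± 118 CPM in cluster 12, where Dusp1 was lowest, and 5.42 ± 0.448 CPM in cluster 0, where Dusp1 was highest, a 62.1-fold range. Of the 13 steps between neighbouring clusters in the order of levels, the replicates overlapped in 9 for Dusp1, 8 for Dusp2 and 9 for Dusp5. Among the overlapping steps were the first of Dusp5, from cluster 12 to cluster 7, and the lowest of Dusp2 and Dusp5, so much of the order is not resolved.

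Within the ZFP36 family each paralog had its own peak. Zfp36 was highest in cluster 0 at 6019 ± 45.0 CPM and next in inflammatory cluster 2 at 5248 ± 256, with replicates apart, and held a narrow 3.45-fold range over the 11 clusters. Zfp36l1 was highest in cluster 2 at 1410 ± 18.1 CPM, above cluster 0 at 1171 ± 7.86 and cluster 12 at 1097 ± 161, and lowest of the 11 in cluster 13 at 271 ± 23.7. Zfp36l2 was highest in the cDC1-like cluster 11 at 858 ± 235 CPM, overlapping cDC2-like cluster 4 at 667 ± 159 and apart from cluster 0 at 640 ± 37.0. The same gene was at 29.3 ± 24.4 CPM in cluster 12, a 29.3-fold range. Neighbours in the order overlapped in 7 of 13 steps for Zfp36, 8 for Zfp36l1 and 10 for Zfp36l2.

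The BTG genes were highest in different clusters. Btg1 was highest in cluster 7 at 3019 ± 650 CPM, apart from cluster 5 at 2039 ± 25.9, and low in cluster 0 at 442 ± 62.3 and in fibroblast-marker cluster 9 at 431 ± 43.0. Btg2 was highest in cluster 0 at 2586 ± 451 CPM, overlapping cluster 11 at 2191 ± 498 and apart from cluster 7 at 2051 ± 279, and lowest of the 11 in cluster 12 at 528 ± 33.0. Neighbours overlapped in 6 of 13 steps for Btg1 and 10 for Btg2.

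**Figure D2:**
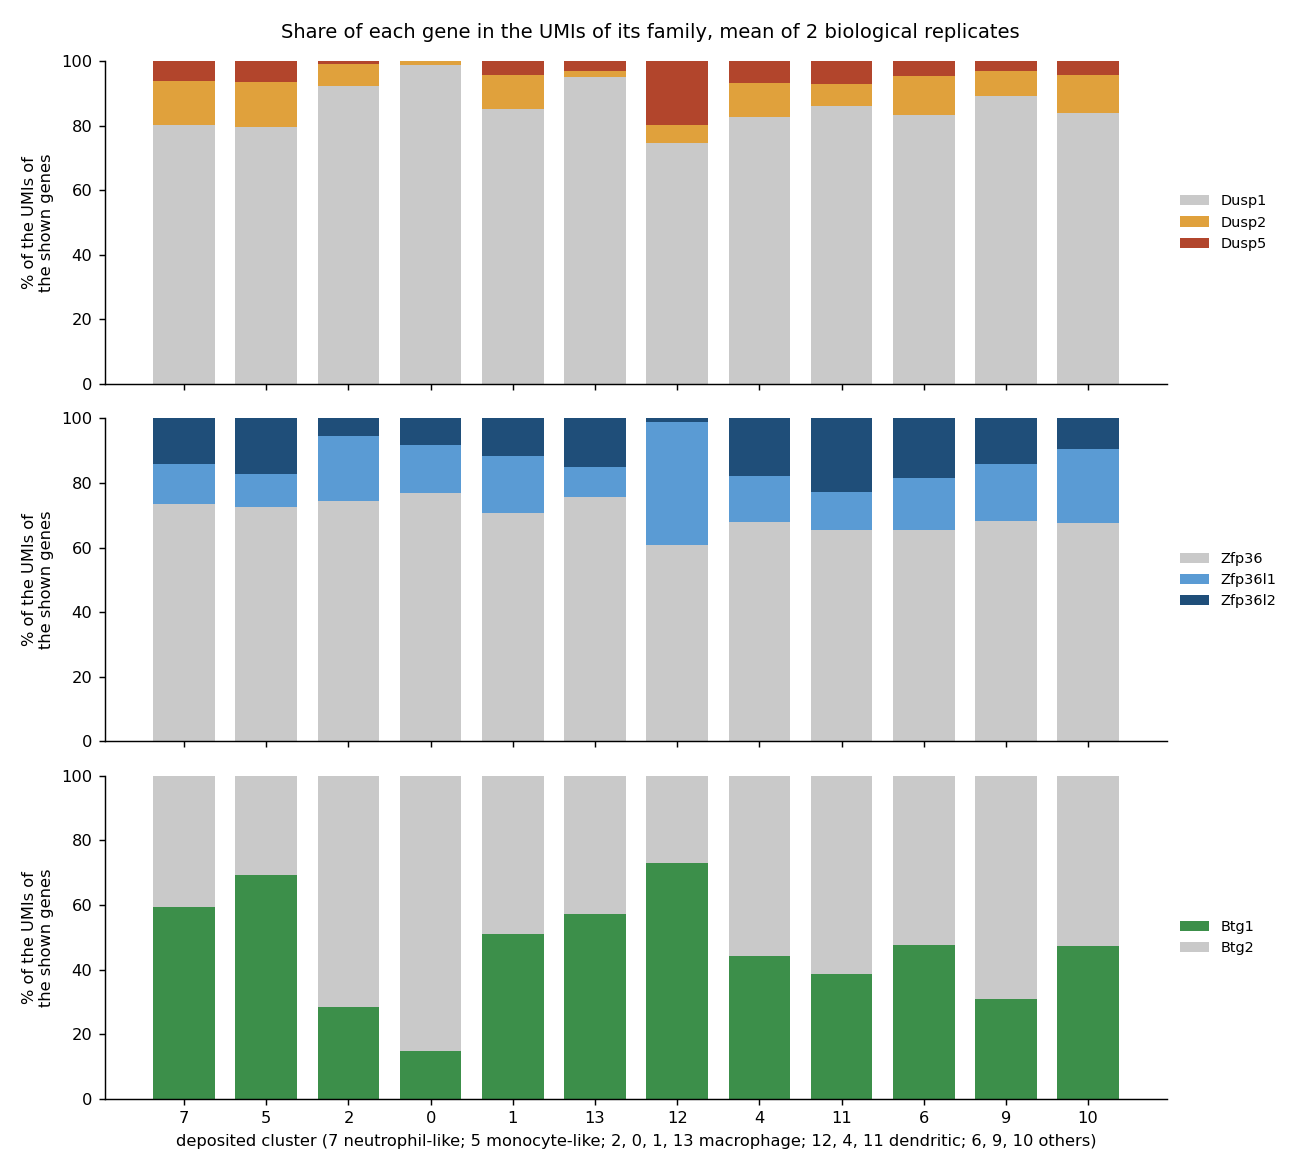
Percent of the UMIs of each family that each member gave in 12 clusters, as the mean of the 2 biological replicates; clusters 3 and 8, with few UMIs of these genes, are not drawn. Dusp5 gave 19.8% of phosphatase UMIs in cluster 12 and 0.0947% in cluster 0, and Btg1 gave 73.1% of BTG UMIs in cluster 12 and 14.9% in cluster 0.

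Shares within each family do not depend on the total of the cluster. In cluster 12 Dusp5 gave 19.8% ± 2.97 of the Dusp1, Dusp2 and Dusp5 UMIs, against 6.72% ± 2.24 in cluster 4. In cluster 12 Zfp36l1 gave 38.1% ± 2.34 and Zfp36l2 1.06% ± 0.941 of the ZFP36 family UMIs, against 14.1% ± 3.36 and 17.8% ± 2.02 in cluster 4. Btg1 gave 73.1% ± 0.214 of the BTG UMIs in cluster 12, 69.3% ± 9.34 in cluster 5, 50.9% ± 2.63 in cluster 1 and 14.9% ± 3.96 in cluster 0. Cluster 12 was thus the cluster in which the less abundant members Dusp5, Zfp36l1 and Btg1 took the highest mean share of their families among the 11 clusters, with Btg1 overlapping cluster 5, while resident macrophage-like cluster 0 gave nearly all of its phosphatase UMIs to Dusp1, 98.8% ± 0.253.

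Clusters 3 and 8 held almost none of these transcripts. The 8 genes together made 850 ± 248 CPM in cluster 3 and 223 ± 32.2 CPM in cluster 8, against 16596 ± 789 CPM in cluster 0. Dusp1 had 111 and 95.4 CPM in replicates 1 and 2 of clusters 3 and 8, as the mean of both clusters, against 3294 and 3540 CPM in clusters 0, 1, 2 and 13. Zfp36 had 104 and 58.4 CPM in clusters 3 and 8, against 4014 and 3888 CPM in the other 4 clusters. For all 8 genes the mean of clusters 3 and 8 lay below the mean of the other 4 clusters, with replicates of these means apart. Single clusters overlapped for Dusp2 and Dusp5. In replicate 1 of cluster 3 Dusp5 was at 8.14 CPM, above both replicates of cluster 0 (5.73 and 5.10). Dusp2 was at 24.4 CPM there, above replicate 2 of cluster 13 (8.22). The share of all genes without overlap of such means was not counted, and 37.1% of all tested genes were called. Dusp2 (3 UMIs) and Dusp5 (1 UMI) were near absence in clusters 3 and 8. In cluster 8 alone both had 0 UMIs, which allows up to 23.4 CPM, a level above that of Dusp5 in cluster 0, so for Dusp5 cluster 8 cannot be told apart from cluster 0.

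All 8 genes fell in clusters 3 and 8 against clusters 0, 1, 2 and 13 (edgeR quasi-likelihood test, Benjamini-Hochberg adjustment over 6657 genes), where 25.8% of all tested genes fell. Their median log2 fold change was -4.91, or -4.65 with Dusp2 and Dusp5 at the ratio of pooled counts, against -0.63 over all tested genes. Zfp36 fell by 5.80 ± 0.21 (SE) on the log2 scale (adjusted p = 1.678e-22) and Dusp1 by 5.17 ± 0.21 (adjusted p = 1.137e-21). Pooled over cells, clusters 3 and 8 held 2.21% of the Zfp36 level of the other macrophages (95% counting interval 1.60% to 2.96%), 3.29% for Dusp1 and 4.05% for Btg2. The pooled level was 12.2% for Zfp36l1, 15.3% for Btg1 and 22.8% for Zfp36l2 (17.0% to 30.1%). Cluster 3 gave 53 of the 54 UMIs of Zfp36l1, 45 of the 55 of Btg1 and 48 of the 51 of Zfp36l2. Cluster 3 also held more UMIs in total, 122885 and 212119 in its replicates, against 54945 and 73257 in cluster 8. On the CPM scale Zfp36l1 was at 164 in cluster 3 and 6.825, from 1 UMI, in cluster 8. Zfp36l2 was at 142 and 20.5 CPM, and Btg1 was closer at 145 and 77.4 CPM. For Dusp2 the pooled level was 3.78% (0.779% to 11.1%) and for Dusp5 3.93% (0.0992% to 22.0%), both from 1 to 3 UMIs. All 8 calls held under every alternative that could be fitted.

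Cells of clusters 3 and 8 were also shallow. The median cell held 834 UMIs in cluster 3 and 980 in cluster 8, against 4404 in cluster 0, and cluster 10, with a median of 805 UMIs, held the 8 genes at 10195 ± 601 CPM. With each cell thinned to 500 UMIs, 68.9% of cluster 3 cells and 89.5% of cluster 8 cells had no UMI of any of the 8 genes, against 3.90% of cluster 10 cells and 1.42% of cluster 0 cells. Without thinning it was 58.2% in cluster 3 and 79.0% in cluster 8. Dusp1 was seen at 500 UMIs in 1.91% of cluster 8 cells, 52.0% of cluster 10 cells and 86.8% of cluster 0 cells. Dusp1 was lowest in cluster 8, with 6 UMIs, and whether these came from the cells or from free RNA was not tested.

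Immediate-early, heat shock and nuclear RNAs moved with the 8 genes. Of the immediate-early and heat shock genes 14 of 14 fell in clusters 3 and 8, and they summed to 5689 CPM in cluster 3 and 4566 CPM in cluster 8, against 53853 CPM in cluster 0. Fos averaged 119 ± 57.1 CPM in clusters 3 and 8, against 3821 ± 158 CPM in clusters 0, 1, 2 and 13, and Jun 114 ± 37.8 against 3072 ± 299 CPM. The nuclear RNA Malat1 averaged 753 ± 566 CPM in clusters 3 and 8, against 18418 ± 557 CPM in the other macrophages, and Neat1 36.2 ± 34.8 against 1214 ± 87.3 CPM. Among AU-rich mRNAs known as TTP targets 12 of 16 fell. The MAP kinase cascade was less uniform, with 7 of 15 lower and 1 higher, and 9 of 15 genes of the deadenylation machinery and 3 of 7 other MAP kinase phosphatases fell. The part of these RNAs, or of depth, in the levels of the 8 genes was not tested.

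**Figure D3:**
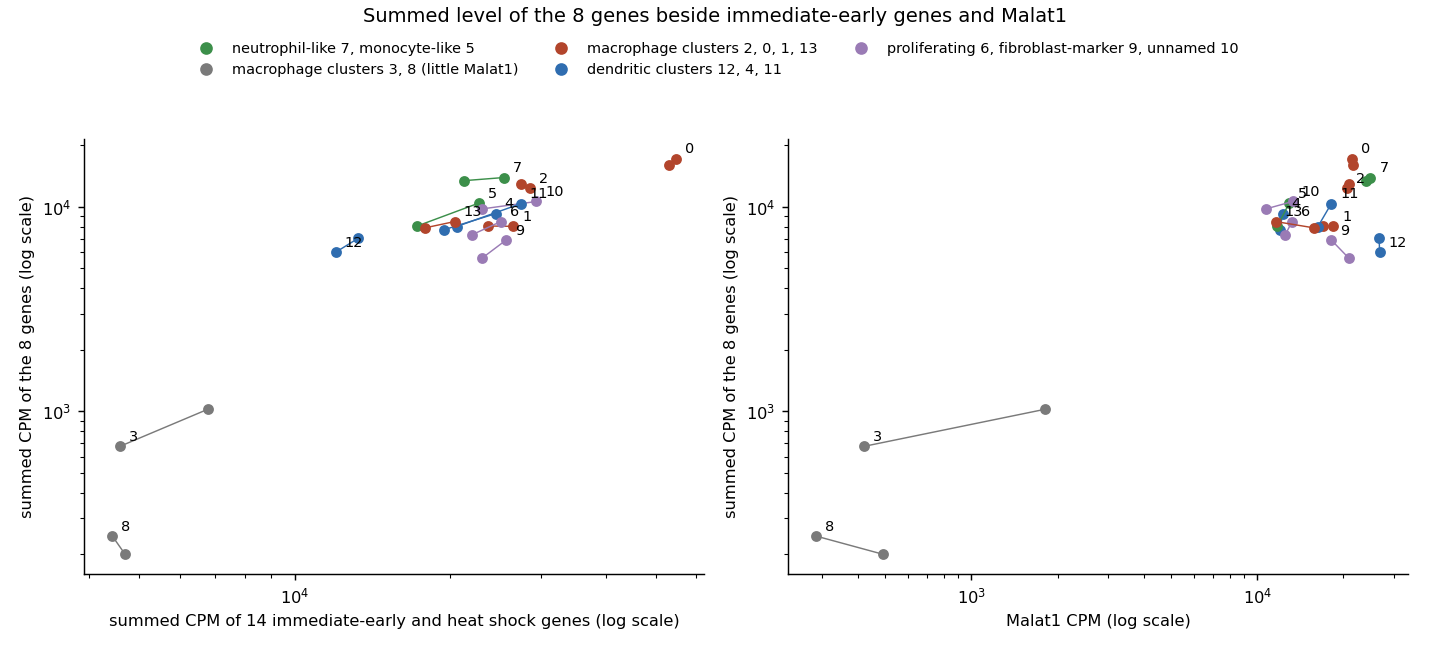
Summed CPM of the 8 genes (vertical) against summed CPM of 14 immediate-early and heat shock genes (left panel) and against Malat1 CPM (right panel), log axes, with 1 point per cluster and biological replicate and a line joining the replicates of a cluster. Clusters 3 and 8 stand apart at the low end of all axes, cluster 0 is highest on both axes of the left panel at 16596 and 53853 CPM, and cluster 12 is low for early genes at 12644 CPM but highest for Malat1.

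Macrophage and dendritic clusters were compared next. On the plain mean of cluster levels Dusp1 had 2233 and 2392 CPM in the 2 replicates of the 6 macrophage clusters, against 1490 and 1654 CPM in the 3 dendritic clusters. Zfp36 had 2710 and 2612 CPM in macrophage clusters, against 2171 and 2301 CPM in dendritic clusters. Dusp5 had 46.1 and 33.0 CPM in macrophage clusters, against 225 and 191 CPM in dendritic clusters, and Btg1 had 709 and 577 against 1256 and 1366 CPM. So the mean of the macrophage clusters stood above that of the dendritic clusters for Dusp1 and Zfp36, and below for Dusp5 and Btg1. Replicates of these means did not overlap. The share of all genes without such overlap was not counted, and 29.4% of all tested genes were called between these classes. For Zfp36 and Btg1 the single clusters did not split by class. Zfp36 was at 2338 CPM in macrophage cluster 1 and 2200 in cluster 13, below 2535 in dendritic cluster 4. Btg1 was at 1487 CPM in cluster 13, against 1437 in cluster 12, the highest dendritic cluster.

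The fit averages log levels over clusters, so the near-empty clusters 3 and 8 pull it down. With them, 7 of the 8 genes fell in macrophage against dendritic clusters, where 18.9% of tested genes fell. Dusp1 fell by 0.71 ± 0.12 on the log2 scale (adjusted p = 1.938e-05) and Zfp36 by 1.27 ± 0.12 (adjusted p = 7.865e-11), both opposite to their plain means. Without clusters 3, 8 and 10, Dusp1 rose by 1.03 ± 0.087 (SE), Zfp36 by 0.68, Zfp36l2 by 0.73 and Btg2 by 0.31, while Btg1 fell by 0.70 and Dusp5 by 2.40. In that fit 29.0% of 8925 tested genes were called, 17.0% higher and 12.1% lower, and the median of all genes was 0.17. Dusp2 (-0.26) and Zfp36l1 (0.16) were not called there. Btg1 and Dusp5 were the genes that fell both with and without clusters 3 and 8. Without library 1-2, in the fit that keeps clusters 3 and 8, Dusp1 (-0.28, adjusted p = 0.603) and Zfp36 (-0.76, adjusted p = 0.0763) were no longer called.

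**Figure D4:**
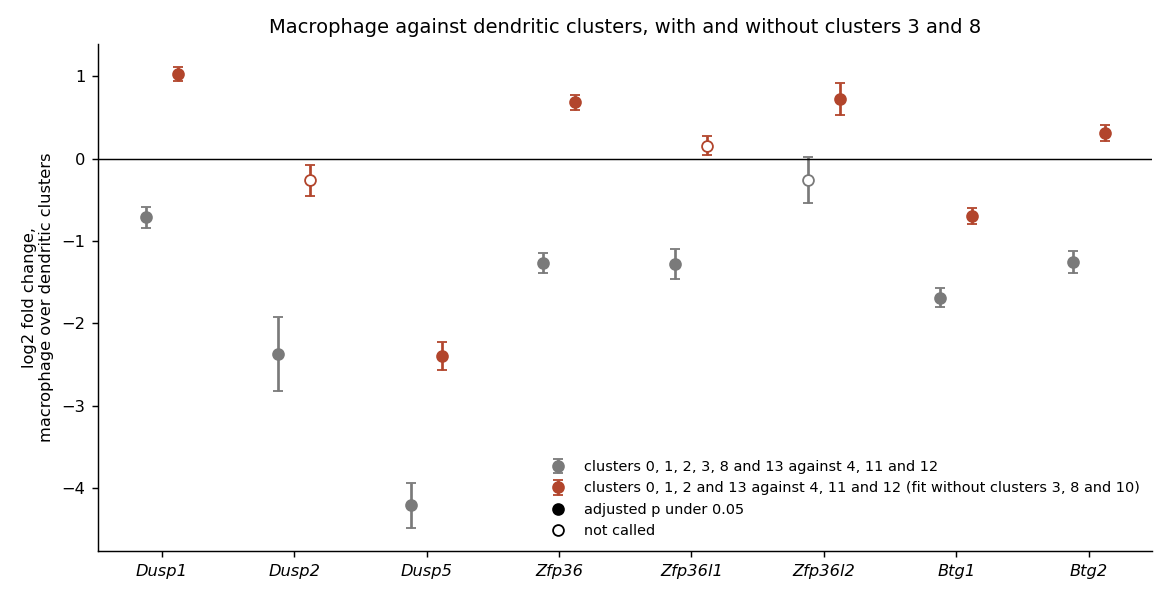
Log2 fold change of macrophage against dendritic clusters for the 8 genes, with all clusters and without clusters 3, 8 and 10; bars are standard errors of the edgeR fit, filled points passed an adjusted p of 0.05 and open points did not. Dusp1 stands at -0.71 with all clusters and at 1.03 without the 3 shallow clusters, while Dusp5 and Btg1 stay below 0 in both.

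The wider pathway was counted in the same comparison. With all clusters 10.5% of all tested genes rose and 18.9% fell. Without clusters 3, 8 and 10 it was 17.0% and 12.1%. Whether any list differed from these shares was not tested. Of 7 other MAP kinase phosphatases tested with all clusters, 1 rose and 2 fell, and of 8 tested without clusters 3, 8 and 10, 4 rose and 1 fell. Dusp3, which acts on ERK and JNK, rose to 105 ± 1.75 CPM in macrophage clusters, against 69.4 ± 0.347 CPM in dendritic clusters (log2 fold change 0.62, adjusted p = 0.0164). Of 15 genes of the kinase cascade 2 rose and 2 fell with all clusters, and of 18 tested without clusters 3, 8 and 10, 6 rose and 1 fell. With all clusters Mapk3 (ERK1) rose by 0.66 and the p38 substrate kinase gene Mapkapk2 by 0.45 on the log2 scale, and Map3k1 fell by 1.57. Of the deadenylation and decay machinery 4 of 15 fell, among them the RNA helicase gene Ddx6 with 127 ± 3.68 CPM in macrophage clusters, against 199 ± 2.83 CPM in dendritic clusters, and the BTG relative Tob2. Of 11 other decay and stability factors 4 fell, including the AU-rich element binder Hnrnpd with 96.5 ± 12.5 CPM in macrophage clusters, against 165 ± 27.4 CPM in dendritic clusters. Without clusters 3, 8 and 10, 1 of those 11 rose and 2 fell. Without clusters 3, 8 and 10, edgeR called 0 of 21 tested genes of the deadenylation machinery, and 3 of them had an unadjusted p under 0.05.

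Transcripts known to be cleared by TTP did not move as one. Of 16 tested, 4 rose and 2 fell with all clusters, and 12 of 17 rose and 1 fell without clusters 3, 8 and 10. The chemokine gene Ccl2 averaged 1207 ± 26.0 CPM in macrophage clusters, against 343 ± 65.1 CPM in dendritic clusters, and rose by 1.13 on the log2 scale. Il1b, which encodes interleukin 1 beta, averaged 982 ± 217 CPM in macrophage clusters, against 3085 ± 78.4 CPM in dendritic clusters, and fell by 3.00. So Ccl2 was higher in the class with more Zfp36 mRNA on the plain mean, and Il1b lower. The immediate-early and heat shock list fell in 10 of 14 genes with all clusters and rose in 10 of 14 without clusters 3, 8 and 10. All 14 were lower in clusters 3 and 8, as were Dusp1 and Zfp36. Leaving these clusters out therefore moves all of these genes upward, and the shared turn is not a separate result.

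Resident macrophage-like cluster 0 and the unnamed macrophage cluster 1 are the largest clusters, with 635 and 543 cells, and all 8 genes differed between them. Dusp1 had 5444 and 5898 CPM in the replicates of cluster 0, against 2121 and 2214 CPM in cluster 1. Zfp36 had 5987 and 6051 CPM in cluster 0, against 2393 and 2283 CPM in cluster 1, and Btg2 had 2267 and 2905 CPM, against 1017 and 1144 CPM. Dusp2 had 68.8 and 54.1 CPM in cluster 0, against 279 and 247 CPM in cluster 1. Dusp5 had 5.73 and 5.10 CPM in cluster 0, against 125 and 96.4 CPM in cluster 1, and Btg1 had 486 and 398 CPM, against 1135 and 1101 CPM. The replicates of the clusters did not overlap for any of the 8 genes. The share of all genes without overlap was not counted, and 25.0% of all tested genes were called. In cluster 0 all 3 ZFP36 genes, Dusp1 and Btg2 were the higher ones, and Dusp2, Dusp5 and Btg1 the lower ones.

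Of the 8 genes 5 rose and 3 fell in cluster 0 against cluster 1, where 12.4% of tested genes rose and 12.5% fell. Dusp1 rose by 1.33 ± 0.18 (SE) on the log2 scale (adjusted p = 3.773e-07), Zfp36 by 1.30 ± 0.18 and Btg2 by 1.19 ± 0.19. Zfp36l1 rose by 0.95 ± 0.21 and Zfp36l2 by 0.67 ± 0.22. Dusp5 fell by 4.34 ± 0.32 (adjusted p = 2.589e-13), Dusp2 by 2.17 ± 0.26 and Btg1 by 1.40 ± 0.19. Without library 1-2, the library with the most cells, only Dusp2, Dusp5 and Btg1 were still called. The estimates of Dusp1 (1.35, adjusted p = 0.0797), Zfp36 (1.21, adjusted p = 0.15) and Btg2 (1.17, adjusted p = 0.136) hardly moved. That fit kept 33 and 53 cells of replicate 1 in clusters 0 and 1, but as few as 3 in cluster 11. Whether the lost calls came from clusters 0 and 1 or from such small sums was not tested. Without library 2-2, Zfp36l1 (0.87, adjusted p = 0.1) and Zfp36l2 (0.70, adjusted p = 0.186) were lost, and without the replicate block Zfp36l2 was lost (0.68, adjusted p = 0.0648). Of the immediate-early and heat shock genes 10 of 14 rose, with Jun at 7623 ± 634 CPM in cluster 0, against 1565 ± 231 CPM in cluster 1. Of the TTP targets 2 of 16 rose and 6 fell, and of the other MAP kinase phosphatases 4 of 7 rose and 1 fell. The cells of clusters 0 and 1 were of similar depth, with medians of 4404 and 5115 UMIs, and all 8 calls held with each cell thinned to 500 UMIs.

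Inflammatory cluster 2 held more Dusp2 and Dusp5 and less Dusp1 and Btg2 than cluster 0. Dusp2 had 235 and 240 CPM in the replicates of cluster 2, against 68.8 and 54.1 CPM in cluster 0. Dusp5 had 38.5 and 30.9 CPM in cluster 2, against 5.73 and 5.10 CPM in cluster 0, and Dusp1 had 3441 and 3088 CPM, against 5444 and 5898 CPM. Dusp2 rose by 2.04 ± 0.27 (SE) on the log2 scale (adjusted p = 7.393e-07) and Dusp5 by 2.69 ± 0.40, and Dusp1 fell by 0.72 ± 0.18 (adjusted p = 0.00874) and Btg2 by 0.71 ± 0.19. These are 4 of the 8 genes, where 6.44% of tested genes were called, 4.06% higher and 2.39% lower. Zfp36 differed by -0.12 ± 0.18 and Zfp36l1 by 0.34 ± 0.21, and neither was called. Zfp36l2 had 376 and 377 CPM in cluster 2, against 614 and 666 CPM in cluster 0, and was not called (-0.69 ± 0.23, adjusted p = 0.0639), but it was called lower under other settings, among them 2000 UMIs per cell (-0.85, adjusted p = 0.00221). Without the replicate block Btg2 was not called (-0.73, adjusted p = 0.135). Without library 1-2, Dusp1 (-0.54, adjusted p = 0.966) and Btg2 (-0.54, adjusted p = 0.959) were not called. Without library 2-2 they were also not called, at -0.68 (adjusted p = 0.421) for Dusp1 and -0.65 (adjusted p = 0.446) for Btg2. Dusp5 was not called at 500 UMIs per cell (1.49, adjusted p = 0.619). Beside this, 9 of 16 TTP targets rose in cluster 2, and 9 of 14 immediate-early and heat shock genes fell. Genes such as Ccl2, Ccl3 and Il1b are both TTP targets and inflammatory markers, and cluster 2 was named by those markers. The count of TTP targets is therefore not independent of the name of the cluster.

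**Figure D5:**
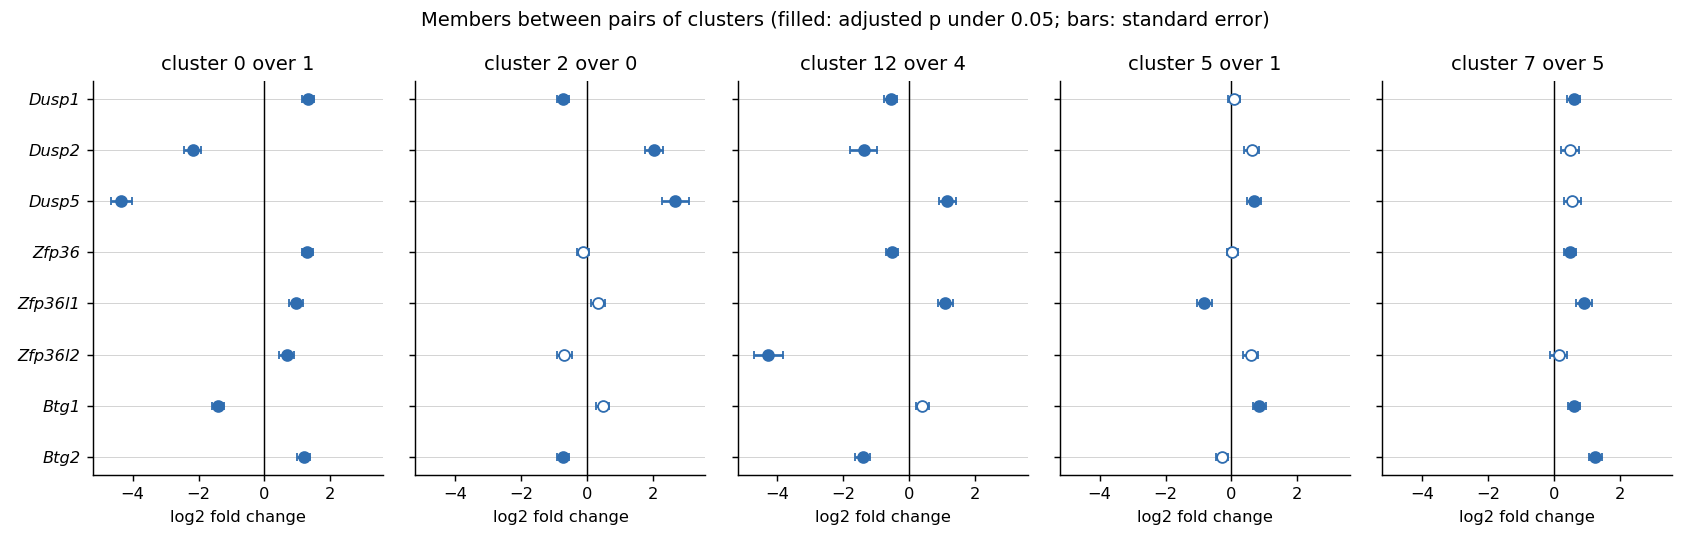
Log2 fold change of each of the 8 genes in 5 comparisons of cluster pairs, with standard errors of the edgeR fit; filled points passed an adjusted p of 0.05. Dusp5 reaches -4.34 in cluster 0 against cluster 1 and 1.16 in cluster 12 against cluster 4, and Zfp36l2 reaches -4.27 in cluster 12 against cluster 4.

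Among dendritic cells the mature cluster 12 (44 cells) was set against cDC2-like cluster 4 (276 cells). The clearest difference was in Zfp36l2, which had 11.99 and 46.5 CPM in the replicates of cluster 12, against 555 and 780 CPM in cluster 4. By library it was at 0 CPM in libraries 1-1 and 2-1, 18.1 CPM in library 1-2 and 64.5 CPM in library 2-2 of cluster 12, 8 UMIs in all. It was detected in 13.6% of cluster 12 cells (6 of 44), against 83.7% of cluster 4 cells, and with cells thinned to 2000 UMIs in 8.33% against 57.4%. Its paralog went the other way: Zfp36l1 had 1211 and 983 CPM in cluster 12, against 559 and 477 CPM in cluster 4. Dusp5 had 420 and 253 CPM in cluster 12, against 174 and 123 CPM in cluster 4, and Btg2 had 552 and 505 CPM, against 1120 and 1731 CPM. For all 8 genes the replicates of the clusters did not overlap. The share of all genes without overlap was not counted, and 20.0% of all tested genes were called.

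Zfp36l2 fell by 4.27 ± 0.44 (SE) on the log2 scale in cluster 12 (adjusted p = 1.242e-09) and Btg2 fell by 1.41 ± 0.22 (adjusted p = 6.224e-06), and both were called under every alternative run. Zfp36l1 rose by 1.10 ± 0.23 (adjusted p = 4.969e-04) and Dusp5 by 1.16 ± 0.27 (adjusted p = 0.00117). Dusp2 fell by 1.38 ± 0.40, Dusp1 by 0.56 ± 0.20 and Zfp36 by 0.52 ± 0.19, and Btg1, at 0.40 ± 0.20, was not called. In all 2 rose and 5 fell, where 8.59% of tested genes rose and 11.4% fell, and the median of all tested genes was -0.30. Relative to that median the falls of Dusp1 and Zfp36 are small. With relative log expression (RLE) size factors in edgeR they came to -0.34 (adjusted p = 0.271) and -0.29 (adjusted p = 0.297), neither called. Zfp36l1 was not called without library 1-2 (0.64, adjusted p = 0.424) or library 2-2 (1.00, adjusted p = 0.0843). Dusp2 was not called without library 1-2 (-1.08, adjusted p = 0.222) or library 2-2 (-1.21, adjusted p = 0.104). Leaving out any of the 4 libraries ended the call of Zfp36 (-1.09 to -0.30), and Dusp1 was called with library 2-2 left out but not with any other left out (-1.03 to -0.33). Dusp5 was not called with the 4 libraries as samples (0.76, adjusted p = 0.106) or at 500 UMIs per cell (1.17, adjusted p = 0.309). Without the replicate block Dusp1 (-0.57, adjusted p = 0.079) and Zfp36 (-0.52, adjusted p = 0.0694) were not called, and with RLE size factors Btg1 was called higher (0.62, adjusted p = 0.021). Of the immediate-early and heat shock genes 11 of 14 fell, with Fos at 828.6 ± 270 CPM in cluster 12, against 2084 ± 424 CPM in cluster 4, while Malat1 rose to 26716 ± 78.4 CPM in cluster 12, against 12128 ± 190 CPM in cluster 4. Of the TTP targets 5 of 16 fell.

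Monocyte-like cluster 5 differed from macrophage cluster 1 in Btg1, Dusp5 and Zfp36l1, and overlapped it in Dusp1 and Zfp36. Btg1 had 2057 and 2021 CPM in cluster 5, against 1135 and 1101 CPM in cluster 1. Zfp36l1 had 298 and 365 CPM in cluster 5, against 609 and 556 CPM in cluster 1, and Dusp5 had 202 and 161 CPM, against 125 and 96.4 CPM. Btg1 rose by 0.85 ± 0.19 (SE) on the log2 scale (adjusted p = 9.645e-04), Dusp5 rose by 0.69 ± 0.21 (adjusted p = 0.0201) and Zfp36l1 fell by 0.83 ± 0.22 (adjusted p = 0.00714), where 14.1% of tested genes were called, 7.36% higher and 6.71% lower. Dusp1 (0.078 ± 0.18) and Zfp36 (0.031 ± 0.18) had overlapping replicates and were not called. Dusp2 had 365 and 453 CPM in cluster 5, against 279 and 247 CPM in cluster 1, and was not called (0.61 ± 0.23, adjusted p = 0.0779), but it was called higher under other settings, among them the 4 libraries as samples (0.73, adjusted p = 0.0127). Zfp36l2, with 384 and 808 CPM in cluster 5 against 380 and 388 CPM in cluster 1, was not called either (0.58 ± 0.23, adjusted p = 0.0877), and was called higher at 2000 UMIs per cell (0.75, adjusted p = 0.00773). Without library 1-2 edgeR called 0 of the 8 genes, of which 3 had an unadjusted p under 0.05, and without library 2-2 it called 0 of the 8, of which 4 had an unadjusted p under 0.05. Without library 1-2 the estimates were 0.77 for Btg1 (adjusted p = 0.407), 0.93 for Dusp5 (adjusted p = 0.126) and -1.12 for Zfp36l1 (adjusted p = 0.145), and without library 2-2 they were 0.76, 0.63 and -1.01 (adjusted p = 0.151, 0.146 and 0.0932). Dusp5 was also not called without library 1-1 (0.52, adjusted p = 0.147), in the DESeq2 Wald test (0.63, adjusted p = 0.0797) or at 500 UMIs per cell (0.67, adjusted p = 0.506). Of the immediate-early and heat shock genes 6 of 14 fell.

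Neutrophil-like cluster 7 was set against cluster 5. Btg2 had 1854 and 2249 CPM in cluster 7, against 651 and 1200 CPM in cluster 5, and rose by 1.25 ± 0.20 (SE) on the log2 scale (adjusted p = 6.573e-06). Btg1 had 2559 and 3479 CPM in cluster 7, against 2057 and 2021 CPM in cluster 5, and rose by 0.62 ± 0.19 (adjusted p = 0.0166). Both BTG genes thus stood higher in the neutrophil-like cells, with replicates apart. Dusp1 rose by 0.60 ± 0.19 (adjusted p = 0.0178), Zfp36 by 0.50 ± 0.18 (adjusted p = 0.0488) and Zfp36l1 by 0.91 ± 0.25 (adjusted p = 0.00641), although the replicates of Zfp36l1, 773 and 347 CPM in cluster 7 against 298 and 365 CPM in cluster 5, overlapped. That made 5 of the 8 genes higher, where 20.5% of tested genes were called, 10.8% higher and 9.64% lower. Dusp2 (0.50) and Dusp5 (0.57) were not called, nor was Zfp36l2 (0.15), but with RLE size factors Dusp2 (0.78, adjusted p = 0.0329) and Dusp5 (0.83, adjusted p = 0.0214) were. Leaving out library 1-1 left Zfp36, Zfp36l1, Dusp1 (0.57, adjusted p = 0.0522) and Btg1 (0.55, adjusted p = 0.0567) uncalled. Without library 1-2 no gene but Zfp36l1 was called, with Btg2 at 1.14 (adjusted p = 0.148). Without library 2-1 Btg1 (0.28, adjusted p = 0.325) and Zfp36 (0.33, adjusted p = 0.26) were lost, and without library 2-2 only Btg2 was called, with Dusp1 at 0.36 (adjusted p = 0.556). Without the replicate block 3 genes were called, Dusp1 (0.59, adjusted p = 0.0545) and Zfp36 (0.49, adjusted p = 0.0802) being lost. The median cell held 1601 UMIs in cluster 7 and 5859 in cluster 5. Malat1 and Neat1 both rose in cluster 7, as did 7 of 14 immediate-early and heat shock genes, of which 2 fell, and 9 of 16 TTP targets. The TTP targets Ccl3 and Il1b are also inflammatory markers, of which cluster 7 held 8 of 12. The count of TTP targets is therefore not separate from those markers.

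The 8 genes were also compared by their course over the clusters. These correlations (Pearson r of log2(CPM + 10)) are descriptions over clusters that share libraries and, in part, depth, and over all 14 clusters they are drawn out by clusters 3 and 8. Dusp1 and Zfp36 were the closest pair, with r = 0.99 over 14 clusters and 0.88 over the 11 clusters without 3, 8 and 10. Among 2660 genes of at least 50 CPM on average, Zfp36 was the gene most like Dusp1, and the next was Ccnl1 (r = 0.98). For Zfp36 the next was the AP-1 gene Junb (r = 0.99), and for Btg2 they were Ier5 (r = 0.99) and Fosb (r = 0.97). Dusp2 was most like Osm and Dot1l, Dusp5 most like Nr4a3 and Cytip, Zfp36l1 most like Phip and Ppp1r10, Zfp36l2 closely like Hnrnpm, and Btg1 most like Isy1 and Ago2, with r of 0.93 to 0.97. Over the 11 clusters most of these partners changed: Map3k8 (r = 0.94) and Wsb1 (r = 0.93) were most like Dusp1, Snx8 and Dclre1c (both r = 0.93) most like Zfp36, and Gtf2b (r = 0.92) and Sema4d (r = 0.90) most like Dusp2. Isy1 (r = 0.95) and Ier5 (r = 0.93) were still most like Btg1 and Btg2. For Dusp5 over the 11 clusters r was -0.69 with Dusp1 (Spearman rho -0.42), -0.74 with Zfp36 (rho -0.29) and 0.82 with Btg1 (rho 0.75).

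Within clusters, cells with more Dusp1 tended to hold more Zfp36. With each cell thinned to 2000 UMIs, 6 clusters kept at least 100 cells. Across cells of 1 cluster the r of Dusp1 with Zfp36 was 0.309 to 0.551 (median 0.480), that of Zfp36 with Btg2 0.30 to 0.492 and that of Dusp1 with Btg2 0.217 to 0.422. These 3 are the members named above as immediate-early genes, and only 15 of the 168 values over 28 pairs and 6 clusters passed 0.3. Outside these pairs, Zfp36 with Zfp36l1 reached 0.381 (median 0.14) and Zfp36l1 with Btg2 reached 0.307 (median 0.082). Dusp5 with Dusp1 stayed between -0.148 and 0.0118. Cells of a cluster share libraries and handling, and no test was made on these values.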

How the data were processed

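Reads of 10x Genomics 3' libraries were mapped to mm10 with Cell Ranger 3.0.2, per the labels' protocols, and cells were processed with Seurat 3.1.1, per the submitters' processing notes. The authors deposited raw UMI counts of 3002 cells kept as myeloid, their cluster numbers, and the percent of mitochondrial counts of each cell (highest 9.99 percent). Per-cell totals deposited by the authors matched the column sums. No label states the gene annotation, cell filters or doublet handling. No doublets were called here, and an alternative left out the 5% of cells with the most UMIs in each cluster.

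Counts were summed per cluster and biological replicate (28 sums, each of at least 10 cells) and fitted once with edgeR 4.0.16 in R 4.3.3 (filterByExpr, TMM, glmQLFit, glmQLFTest), with cluster terms and the replicate as a block, 13 residual degrees of freedom, two-sided tests and adjusted p under 0.05 over 6657 genes. The replicate number is a shared source, since the clusters of a replicate come from the same cell suspensions. Library totals of 1698585 to 5954716 UMIs limit precision, and intervals (95%, exact) and the floor of 3 counts cover counting error only. Clusters were drawn by the authors from the same counts, so p values between clusters are too small. With the replicate as a block, they also measure only how differences between clusters varied between the 2 replicates. A contrast of several clusters is the mean of their log levels.

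Alternatives were relative log expression (RLE) size factors in edgeR, the DESeq2 1.42.0 Wald test, no filter, no replicate block and the 4 libraries as samples. Others were each library left out, cells thinned to 500 or 2000 UMIs, no cells of the most UMIs, and no clusters 3, 8 and 10. With a library left out the minimum of 10 cells was not applied, and the smallest sums held 3 cells. Cluster 12 then held 4 cells in replicate 1 without library 1-2 and 6 in replicate 2 without library 2-2. The named genes are the 8 members, up to 4 called genes per function list in the comparison of macrophage with dendritic clusters (largest fold, same direction in both replicates, 50 CPM or more on the higher side), the 2 genes most like each member, cluster markers, and Malat1, Neat1, Fos, Jun and Egr1. Of these, 2 genes are not reported here. The members and lists were chosen with earlier results of these data known, and the lists are background knowledge of each pathway. The scripts were tested on simulated data. Promoter sequences are from RefSeq (GRCm38.p6).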

Additional observations from a re-analysis of the deposited data

Results flagged for a closer look

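With 4 libraries for each gene and cluster, 56 sets of 4 values could be checked for a library that stood far from the other 3, and 7 did, where chance gives about 1 in 20. Btg1 in cluster 0 was lowest in library 2-1 at 315.1 CPM (297 UMIs), with the others at 475.1 to 503.3 CPM. Dusp2 in cluster 4 was lowest in library 1-1 at 134.1 CPM (30 UMIs), with the others at 246.7 to 258.6 CPM, and in cluster 5 lowest in library 1-2 at 330.8 CPM, with the others at 442.2 to 458.6 CPM. Zfp36l2 in cluster 4 was lowest in library 1-2 at 495.1 CPM (425 UMIs), with the others at 764 to 797.3 CPM, and all of these stand far above the 0 to 64.5 CPM of cluster 12. In cluster 3 library 1-2 was the highest for 3 genes: Btg1 at 222.3 CPM (20 UMIs, others 91.14 to 111 CPM), Dusp2 at 33.35 CPM (3 UMIs, others 0) and Dusp5 at 11.12 CPM (1 UMI, others 0). With the other 3 libraries at 0, any count would have stood apart for Dusp2 and Dusp5, so the chance rate does not apply to these 2.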

How the results depend on the processing

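All 8 genes were called lower in clusters 3 and 8 under all 11 alternatives that could be fitted; thinning to 2000 UMIs and leaving out clusters 3, 8 and 10 could not be fitted there. The replicate number pairs sums from the same cell suspensions, and without the replicate block 7 (class), 8 (clusters 3 and 8), 7 (cluster 0 against 1), 3 (2 against 0), 3 (5 against 1), 5 (12 against 4) and 3 (7 against 5) genes were called. Leaving out each library gave 5 to 7 genes for the class comparison, 3 to 8 for cluster 0 against 1, 2 to 5 for 2 against 0, 0 to 3 for 5 against 1, 3 to 5 for 12 against 4 and 1 to 3 for 7 against 5. At 500 UMIs per cell 4 genes were called for the class and 3 for cluster 12 against 4; with 4 libraries as samples 4 for cluster 12 against 4 and 3 for cluster 7 against 5; without the cells of most UMIs 5 for cluster 5 against 1 and 3 for cluster 7 against 5; without a filter 2 for cluster 7 against 5.

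Between macrophage and dendritic clusters the direction turned at 2000 UMIs per cell for Dusp1 (1.10), Zfp36 (0.75), Zfp36l1 (0.0022), Zfp36l2 (0.75) and Btg2 (0.51), and without clusters 3, 8 and 10 for Dusp1 (1.03), Zfp36 (0.68), Zfp36l1 (0.16), Zfp36l2 (0.73) and Btg2 (0.31); both alternatives drop most or all cells of clusters 3 and 8. Uncalled values also turned: Zfp36l2 in the class comparison (-0.48 to 0.37 over libraries left out); in cluster 5 against 1 Dusp1 (-0.12 to 0.11) and Zfp36 (-0.14 to 0.0896), and Zfp36 with size factors (-0.0335), the Wald test (-0.0338) and 500 UMIs (-0.0478); in cluster 7 against 5 Dusp5 at 500 UMIs (-0.0097), and Zfp36l2 without a filter (-0.0817), at 2000 UMIs (-0.25), without the cells of most UMIs (-0.37) and over libraries left out (-0.18 to 0.83). The cause was not tested.

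Few cells limit clusters 11, 12 and 13 (41 to 47 cells), and few UMIs limit Dusp2 and Dusp5, above all in clusters 3 and 8. The 2 replicates share 1 estimate of spread.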

Other observations

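Clusters outside the comparisons also held the 8 genes. Proliferating cluster 6 had Btg1 at 964 ± 3.15 CPM and Btg2 at 1079 ± 243 CPM (SD, n = 2), so transcripts of these genes, known for slowing cell division, were present in the cluster that carries cell cycle genes, which also held T or NK cell markers at 227 and 768 summed CPM in its 2 replicates. Cluster 9, with fibroblast markers, had Dusp1 at 1656 ± 128 CPM and Zfp36 at 2038 ± 440 CPM. Cavity-like cluster 13 had the lowest Zfp36l1 of the 11 deeper clusters and Btg1 at 1487 ± 360 CPM. The unnamed cluster 10, whose leading genes, chosen after their values were seen, include Cma1 and Cpa3, and with a median of 805 UMIs per cell, had Zfp36 at 3074 ± 203 CPM, Dusp1 at 2338 ± 880 CPM and Zfp36l1 at 1090 ± 515 CPM.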
